A study of Mus musculus with 18 samples.

Results

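In the first 3 d after a molar was extracted, 3 genes passed the edgeR test for a different change in mice with periodontitis than in control mice. DESeq2 called 223 genes, with these 3 among them. Aplnr, which encodes the apelin receptor of endothelial cells, rose in both arms and rose less in periodontitis. Bpgm, whose enzyme makes the haemoglobin regulator 2,3-bisphosphoglycerate, and Tfpi2, a protease inhibitor of the extracellular matrix, fell in both arms and fell less in periodontitis. In the edgeR test, no gene that moved in opposite directions passed for the arm difference. The comparison was the change from 0 d to 3 d in the periodontitis arm minus the same change in the control arm, written below as the arm difference on the log2 scale. It contrasted 12 of the 18 libraries, while the fit, the filter on low counts and the estimate of the spread used all 18, and it was computed for the 18697 of 54532 listed genes that passed the filter. With the 12 libraries alone, 2 genes passed, and Bpgm and Tfpi2 were not among them. With 1 library left out, Bpgm and Tfpi2 each passed in 5 of 12 fits.

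The 12 libraries came from mouse tissue at the mandibular first molar, 3 biological replicates each for control at 0 d, control at 3 d, periodontitis at 0 d and periodontitis at 3 d. All 4 groups shared the extraction of the mandibular first molar, and the arms differed in periodontitis, which the labels record under genotype. The labels do not say how periodontitis was produced, nor the strain, sex and age of the mice, nor whether animals were pooled. P-values describe the spread between these replicates.

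An extraction socket first fills with a blood clot, which is replaced by granulation tissue with new vessels, while osteoclasts resorb the damaged socket wall and osteoblasts lay down woven bone. Macrophages clear debris and belong to the same myeloid lineage as osteoclasts. Periodontitis is a chronic inflammation of the tissue around the tooth, in which osteoclasts remove the alveolar bone that holds it.

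Library totals for the 12 libraries lay between 15676489 and 17643758 counts. Marker genes of other tissues differed between libraries of one group. The mean log2 CPM (CPM being counts scaled to the size of the library) of 17 autonomic ganglion neuron markers was 4.70 in control 3 d replicate 2, 5.78 and 5.07 in periodontitis 0 d replicates 1 and 3, and 4.06 and 4.61 in periodontitis 3 d replicates 1 and 2, and at most 0.52 in the other 7 libraries. These 5 are called ganglion-rich below. The mean of 16 skeletal muscle markers reached 2.76, 4.99 and 6.67 in the periodontitis 0 d libraries and 4.37 in periodontitis 3 d replicate 3, against at most 2.35 elsewhere. Markers of ameloblasts and odontoblasts were highest in control 0 d replicate 1, at 3.04. Less RNA of a cell type can mean fewer such cells or less RNA per cell, which bulk tissue cannot tell apart.

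**Figure D1:**
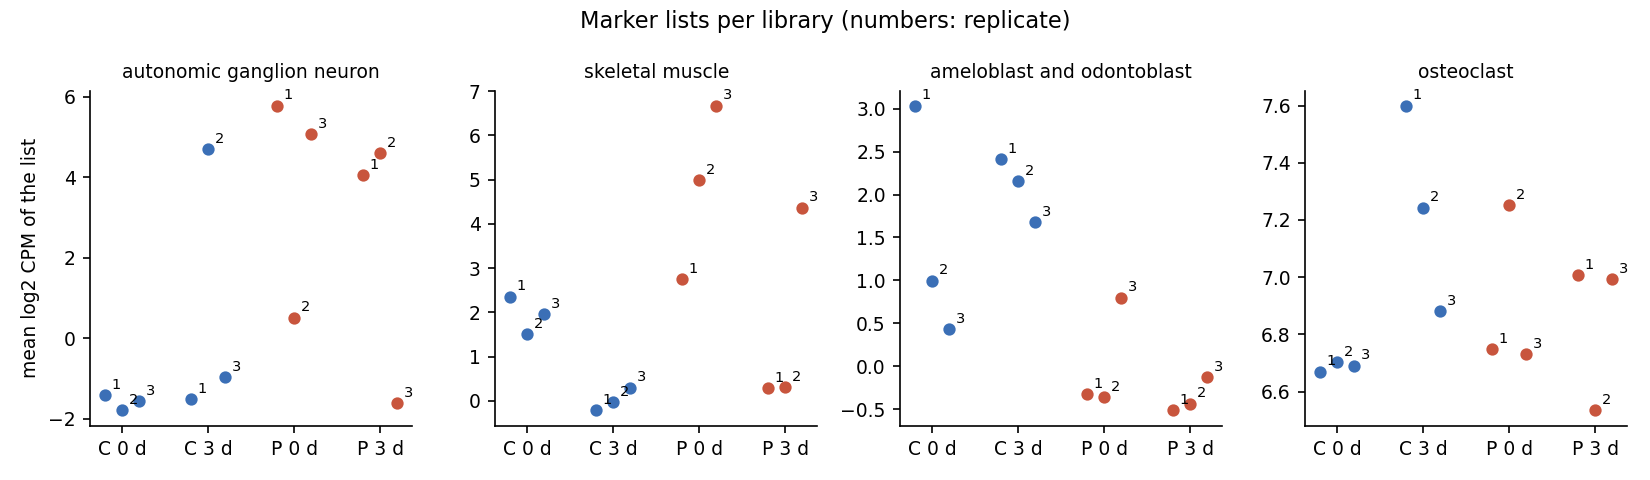
Mean log2 CPM of 4 marker lists in each of the 12 libraries (blue control, red periodontitis; the small number is the replicate). The ganglion list is at 4.06 to 5.78 in 5 libraries and at or below 0.52 in the other 7, and the osteoclast list is highest in control 3 d replicate 1.

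In the edgeR quasi-likelihood test with Benjamini-Hochberg adjustment, 3 of 18697 genes (0.016%) had an arm difference with an adjusted p under 0.05. The 2 genes above 0 were 0.0107% and the 1 below 0 was 0.00535% of the genes tested, and 10 genes had an adjusted p under 0.1. The unadjusted p was under 0.05 for 2228 genes (11.9%), of which 802 (4.29%) lay above 0 and 1426 (7.63%) below. DESeq2 called 223 genes (1.19%), 56 above 0 (0.3%) and 167 below (0.893%), with all 3 of the edgeR calls among them. The edgeR count was 1 to 17 when 1 library was left out, except for 143 without periodontitis 0 d replicate 2. Leaving out the 5 ganglion-rich libraries kept only 1 periodontitis library per day, taken to vary like the other groups, and then gave 0 calls, so that count says nothing about how stable the result is. The median SE of the arm difference was 0.30 for genes at 1 CPM or more.

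The changes within each arm were widespread by comparison. In control mice 3062 genes rose (16.4%) and 3426 fell (18.3%), and in mice with periodontitis 1686 rose (9.02%) and 2281 fell (12.2%). Scaling by library totals alone gave 3805 up and 2589 down in control and 2066 up and 1913 down in periodontitis, and moved the median control change over all genes from 0.03 to 0.16, so the share that rose depends on the scaling. The periodontitis count of 3967 was 1808 with the muscle markers as a covariate, 1473 with muscle and ganglion markers, and 2520 without periodontitis 3 d replicate 1. Of the genes called in an arm, 3130 were called in both, which was 48.2% of the control calls and 78.9% of the periodontitis calls. They had the same sign in 3123 cases and opposite signs in 7. Across all genes tested the control and periodontitis changes, which share no library, had Pearson r = 0.470 and Spearman rho = 0.578, a description across genes that are not independent replicates. The median size of a change was 0.49 in control and 0.38 in periodontitis.

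**Figure D2:**
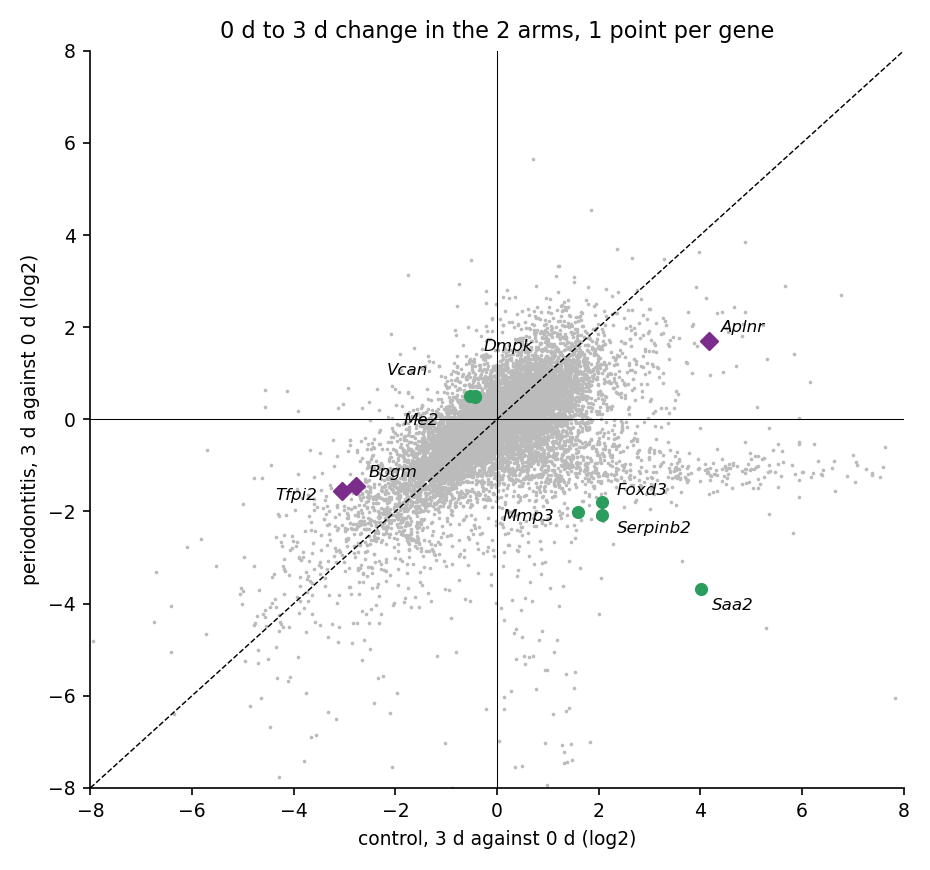
Log2 change from 0 d to 3 d in control (x axis) and periodontitis (y axis), 1 grey point per gene tested, with the dashed line marking equal change. Purple diamonds are the 3 genes called in the arm difference, and green points are the 7 genes called with opposite signs in the arms; 18 of 18697 genes lie outside the axes.

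Among the 2228 genes with an unadjusted p under 0.05, 1056 had estimates of opposite sign in the arms, 1034 had the same sign and a smaller change in periodontitis, and 138 had the same sign and a larger change in periodontitis. Over all genes tested, 4565 had opposite signs, 8874 had a smaller change in periodontitis and 5258 a larger one. Opposite signs thus made up 47.4% of the genes with an unadjusted p under 0.05 and 24.4% of all genes, but genes picked for a large arm difference lean to opposite signs by the choice itself. Read by day, the sign of the level difference between arms turned between 0 d and 3 d for 1370 of the 2228, the arms were closer at 3 d for 796, and they were farther apart at 3 d for 62. The same classes held 7343, 7850 and 3504 of all genes tested. Turned signs thus made up 61.5% of the genes with an unadjusted p under 0.05 and 39.3% of all genes. Here too, genes picked for a large arm difference lean to a turned sign by the choice itself.

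Aplnr (ENSMUSG00000044338, chr2:85136225-85139923, plus strand, GRCm38) encodes the G protein-coupled receptor of apelin, which acts on endothelial cells as vessels form. Its level was 8.07, 5.19 and 7.93 CPM in control at 0 d and 133, 111 and 136 CPM in control at 3 d. In periodontitis it was 56.7, 40.4 and 49.2 CPM at 0 d and 157, 144 and 176 CPM at 3 d. The periodontitis libraries were above the control libraries on both days, with no overlap, and the gap was wider at 0 d. Aplnr rose by 4.16 ± 0.23 (log2, SE) in control and by 1.70 ± 0.20 in periodontitis, an arm difference of -2.46 ± 0.29 (n = 3 per group, edgeR adjusted p = 0.00568). It was the only called member of the endothelial list, whose 18 tested genes had a median arm difference of -0.23. Apln, which encodes the ligand apelin, had 14.6, 12.1 and 16.4 CPM at 0 d and 37.5, 26.3 and 45.2 CPM at 3 d in control. The periodontitis libraries held 23.6, 16.1 and 13.6 CPM at 0 d and 36.0, 27.2 and 41.2 CPM at 3 d. Apln rose in both arms, the arms overlapped on each day, and its arm difference of -0.37 ± 0.36 did not pass (edgeR adjusted p = 0.746). Apln was not among the genes named by the rule given below.

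Bpgm (ENSMUSG00000038871, chr6:34476207-34505613, plus strand, GRCm38) encodes bisphosphoglycerate mutase, best known from red blood cells, where its product lowers the oxygen affinity of haemoglobin. It stood at 168, 179.7 and 181 CPM in control at 0 d and at 24.7, 25.3 and 27.5 CPM in control at 3 d. The periodontitis libraries held 76.9, 59.9 and 60.6 CPM at 0 d and 26.6, 22.02 and 24.03 CPM at 3 d. All periodontitis libraries lay below all control libraries at 0 d, and the arms overlapped at 3 d. Bpgm fell by 2.77 ± 0.13 in control and by 1.44 ± 0.12 in periodontitis, an arm difference of 1.33 ± 0.17 (edgeR adjusted p = 0.00737). The call was lost without control 0 d replicates 1 or 2, control 3 d replicates 1 or 2, periodontitis 0 d replicate 3, or periodontitis 3 d replicates 1 or 3, each left out alone, where the adjusted p reached at most 0.107 and the arm difference at least 1.22. The 15 erythroid genes tested include alpha globin copies so alike that reads could be split between them. All 15 fell in both arms, with a median change of -4.46 in control and -4.24 in periodontitis. Their median arm difference was 0.29, against 1.33 for Bpgm. Their mean log2 CPM was 6.34 to 7.52 in control at 0 d and 3.94 to 5.59 in periodontitis at 0 d, and 2.49 to 3.24 and 0.92 to 1.16 at 3 d. None of them had an unadjusted p under 0.05 for the arm difference, and their part in the Bpgm result was not tested.

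Tfpi2 (ENSMUSG00000029664, chr6:3962595-3988919, minus strand, GRCm38) encodes tissue factor pathway inhibitor 2, a Kunitz-type inhibitor of plasmin and other serine proteases that is deposited in the matrix. Control libraries had 114, 99.0 and 137 CPM at 0 d and 14.3, 11.4 and 16.4 CPM at 3 d. Periodontitis libraries had 34.4, 43.4 and 40.1 CPM at 0 d and 13.8, 11.2 and 14.9 CPM at 3 d. As for Bpgm, the arms were apart at 0 d, with periodontitis lower, and overlapped at 3 d. Tfpi2 fell by 3.05 ± 0.16 in control and by 1.56 ± 0.15 in periodontitis, an arm difference of 1.49 ± 0.21 (edgeR adjusted p = 0.0215). It did not pass without control 0 d replicate 1, control 3 d replicates 1 or 2, periodontitis 0 d replicates 1 or 3, or periodontitis 3 d replicates 1 or 3, each left out alone, where the adjusted p reached at most 0.119 and the arm difference at least 1.33.

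**Figure D3:**
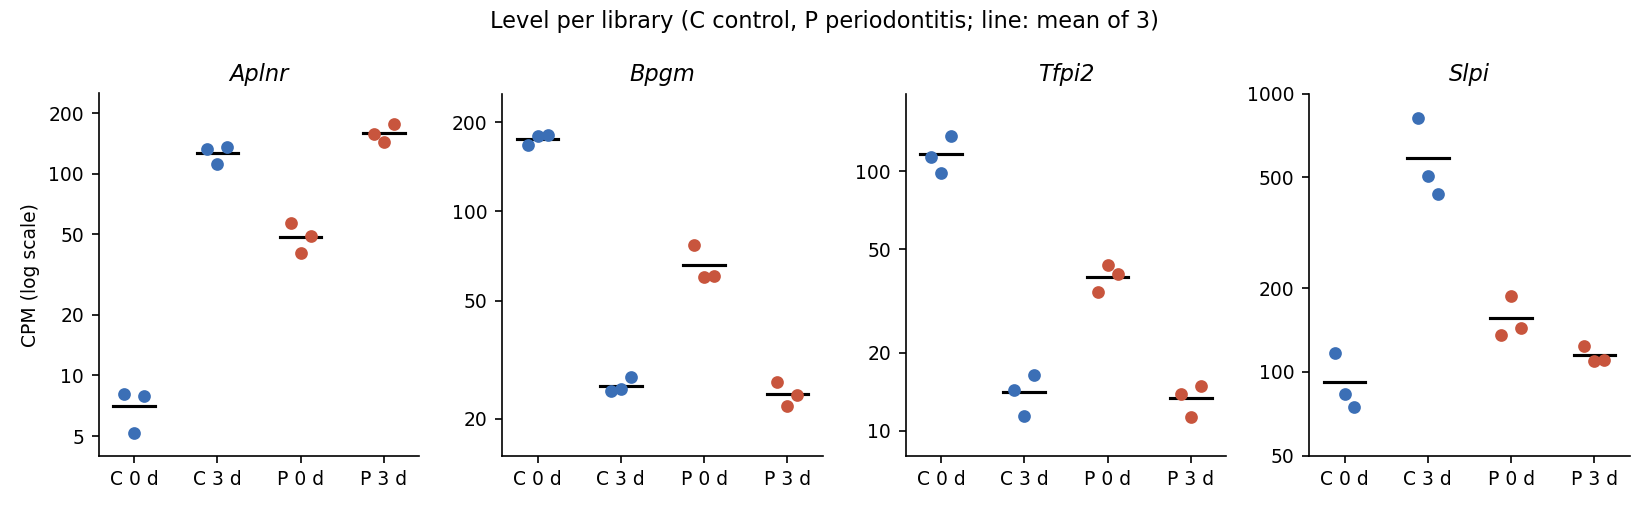
Level of Aplnr, Bpgm, Tfpi2 and Slpi in CPM on a log axis, 1 point per library (blue control, red periodontitis) with a line at the mean of 3. Bpgm and Tfpi2 differ between arms at 0 d and overlap at 3 d, Aplnr is 5.19 to 8.07 CPM in control at 0 d and at least 40.4 CPM in periodontitis at 0 d, and Slpi is at 435 CPM or more only in control at 3 d.

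Bpgm and Tfpi2, the called genes that fell less in periodontitis, are shown with the 250 bases before the RefSeq start site (RefSeq, GRCm38.p6), chr6:34476106-34476355 on the plus strand for Bpgm and chr6:3968376-3968625 on the minus strand for Tfpi2. Capitals mark CCAAT on either strand in Bpgm, the NF-Y motif, and TGANTCA in Tfpi2, a loosened AP-1 motif in which N is any base. Both were searched on both strands and picked after the windows were read. Bpgm holds 3 matches, and CCAAT occurs in 39.4% of the 12825 tested genes with such a window. Tfpi2 holds 1 match, TGAATCA, with A as the open base, 77 bases before the start site. The loosened TGANTCA occurs in 6.18% of these genes. A gene was counted if any of its windows held the motif, and the window printed is the first that did. Part of the Bpgm window and all of the Tfpi2 window lie inside the gene positions given above. The RefSeq start sites used here are therefore not the ends of those positions. The motifs do not overlap, and a match is a stretch of letters, not a measured binding site.
Bpgm: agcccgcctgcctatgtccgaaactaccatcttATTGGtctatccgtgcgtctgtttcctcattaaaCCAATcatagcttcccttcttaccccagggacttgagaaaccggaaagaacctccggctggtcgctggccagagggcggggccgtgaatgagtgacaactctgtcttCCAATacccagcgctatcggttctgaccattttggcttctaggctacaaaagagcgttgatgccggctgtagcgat
Tfpi2: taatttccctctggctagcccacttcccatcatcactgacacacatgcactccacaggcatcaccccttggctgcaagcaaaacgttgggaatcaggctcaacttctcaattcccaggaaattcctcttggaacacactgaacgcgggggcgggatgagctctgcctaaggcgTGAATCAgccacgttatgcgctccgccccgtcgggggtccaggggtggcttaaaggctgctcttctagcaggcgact

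The other 8 genes above 0 with the smallest p did not pass the edgeR test, with adjusted p from 0.0800 to 0.118, while DESeq2 called all 8. They were picked by p on the same counts, so the DESeq2 calls are not separate evidence. Thbd, thrombomodulin, an endothelial cofactor that turns thrombin towards anticoagulation, had 665, 594 and 572 CPM in control at 0 d and 64.3, 57.5 and 62.8 CPM at 3 d. Periodontitis libraries gave 198, 301 and 285 CPM at 0 d and 68.4, 63.1 and 66.6 CPM at 3 d. Thbd fell in both arms, was lower in every periodontitis library than in every control library at 0 d, and overlapped at 3 d, with an arm difference of 1.33 ± 0.26 (edgeR adjusted p = 0.118). Ramp1, a subunit of the receptor for the nerve peptide CGRP, had 53.5, 58.0 and 40.2 CPM at 0 d and 25.6, 30.3 and 38.3 CPM at 3 d in control. The levels in periodontitis were 36.8, 39.9 and 38.2 CPM at 0 d and 51.4, 50.4 and 49.5 CPM at 3 d. Ramp1 fell in control and was higher at 3 d in all periodontitis libraries, but the periodontitis change of 0.40 did not pass (edgeR adjusted p = 0.0696), and the arm difference was 1.08 ± 0.21 (edgeR adjusted p = 0.118). The remaining 6 were Fam220a (0.80), March2, a ubiquitin ligase (0.68), Nat10 (0.64), Rrp1b (0.89) and Nop16 (0.68), which act in the nucleolus, and the mitochondrial malic enzyme gene Me2 (0.94).

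Of the 9 genes below 0 that follow Aplnr by p, none passed the edgeR test and DESeq2 called all 9. Here too the choice by p used the same counts. Slpi, the secretory leukocyte protease inhibitor, which protects tissue from neutrophil elastase, had 117, 83.4 and 74.7 CPM in control at 0 d and 816, 507 and 435 CPM in control at 3 d. It had 136, 187 and 144 CPM in periodontitis at 0 d and 124, 109 and 111 CPM at 3 d. Every control 3 d library was above every other library. Slpi rose by 2.68 ± 0.38 in control, its change of -0.44 ± 0.36 in periodontitis did not pass, and the arm difference was -3.12 ± 0.52 (edgeR adjusted p = 0.0800). Cyp2s1, a cytochrome P450, had 5.96, 7.78 and 7.08 CPM in control at 0 d and 75.0, 96.3 and 37.7 CPM at 3 d, against 49.7, 14.3 and 33.0 and then 41.2, 45.2 and 28.1 CPM in periodontitis. Its control 0 d libraries were the lowest and the other 3 groups overlapped (arm difference -3.09 ± 0.56, edgeR adjusted p = 0.0941).

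Plin4, a coat protein of lipid droplets, had 6.09, 7.65 and 4.27 CPM at 0 d and 3.23, 4.78 and 1.55 CPM at 3 d in control, and 44.8, 16.1 and 37.7 and then 0.931, 1.87 and 2.17 CPM in periodontitis. The periodontitis 0 d libraries exceeded all others (arm difference -3.39 ± 0.61, edgeR adjusted p = 0.0941). Plin4 is on the adipocyte list. The mean log2 CPM of that list was 3.93, 2.14 and 3.03 in periodontitis at 0 d. It was 1.52 to 2.38 in control at 0 d, 1.57 to 2.35 in control at 3 d and 0.62 to 1.40 in periodontitis at 3 d. Of 11 tested adipocyte genes, 4 had an unadjusted p under 0.05 below 0 and none above, against 7.63% and 4.29% of all genes. The count of 4 became 7 without periodontitis 0 d replicate 2. With the ganglion markers as a covariate the median of the list moved from -2.39 to -0.83 and the Plin4 arm difference to -2.83, and the part of the adipocyte genes in the Plin4 value was not tested. The rest were Arpin, an inhibitor of the Arp2/3 complex (-0.83), the transcription factor Ebf3 (-1.57), the vesicular monoamine transporter Slc18a1 (-1.80), the receptor kinase Grk3 (-1.14), the fatty acid transporter Slc27a1 (-0.87) and the acute-phase gene Saa2 (-7.71). The value of Saa2 leaned on control 3 d replicate 1, at 20.2 CPM against 1.69 and 1.05 CPM in the other two, and its reads could be shared with the near-identical Saa1.

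The 7 genes called with opposite signs in the arms were Vcan, Dmpk, Me2, Mmp3, Serpinb2, Foxd3 and Saa2. None of them passed the edgeR test of the arm difference and DESeq2 called all 7. Their choice by opposite changes in the same counts favours a large arm difference, so the DESeq2 calls are not separate evidence. Vcan, Dmpk and Serpinb2 were named after their values were seen. Mmp3, stromelysin-1, a matrix metalloproteinase, had 18.3, 12.8 and 17.9 CPM at 0 d and 81.1, 26.7 and 39.5 CPM at 3 d in control, and 115, 73.9 and 64.5 and then 20.8, 13.5 and 28.2 CPM in periodontitis. It rose by 1.59 in control and fell by 2.02 in periodontitis (arm difference -3.61 ± 0.76, edgeR adjusted p = 0.147), and within each arm the days did not overlap. Serpinb2, plasminogen activator inhibitor 2, had 7.61, 7.71 and 13.3 CPM at 0 d and 65.3, 19.2 and 35.3 CPM at 3 d in control, and 67.9, 52.3 and 31.0 and then 12.3, 12.1 and 11.6 CPM in periodontitis. It rose by 2.06 in control and fell by 2.07 in periodontitis (arm difference -4.13 ± 0.98, edgeR adjusted p = 0.178), and its periodontitis 3 d libraries lay inside the range of control at 0 d.

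Vcan, a large matrix proteoglycan, had 138, 122 and 174 CPM at 0 d and 105, 91.7 and 105 CPM at 3 d in control, and 119, 138 and 113 and then 186, 157 and 186 CPM in periodontitis. The periodontitis 3 d libraries were above both the control 3 d and the periodontitis 0 d libraries (arm difference 1.04 ± 0.23, edgeR adjusted p = 0.178). Me2 had 74.5, 82.8 and 85.6 CPM at 0 d and 60.2, 52.8 and 66.3 CPM at 3 d in control, and 43.8, 43.0 and 50.8 and then 64.5, 61.9 and 68.8 CPM in periodontitis, so the arms were apart at 0 d and overlapped at 3 d. Dmpk, a muscle-rich protein kinase, had an arm difference of 0.91 (edgeR adjusted p = 0.178). Foxd3, a transcription factor of the neural crest and its glia, had 1.19, 0.648 and 1.04 CPM at 0 d and 3.56, 4.23 and 4.34 CPM at 3 d in control, and 22.2, 2.92 and 10.7 and then 4.596, 4.31 and 1.49 CPM in periodontitis (arm difference -3.85 ± 0.80, edgeR adjusted p = 0.134). Within periodontitis Foxd3 was higher in the 4 ganglion-rich libraries than in the other library of the same day. In control at 3 d the ganglion-rich replicate 2, at 4.23 CPM, lay between replicates 1 and 3. With the ganglion markers as a covariate the Foxd3 arm difference was -2.93.

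The lists of bone cells were compared next, beginning with cells that resorb bone. Over all genes tested, 16.4% rose and 18.3% fell in control, and 9.02% rose and 12.2% fell in periodontitis. The arm difference was above 0 for 9552 genes and below 0 for 9145, and DESeq2 called 0.3% above and 0.893% below. These values are the background for the lists below. Osteoclast genes rose in control: 12 of 16 tested rose and 3 fell, while in periodontitis none rose and 2 fell. Their median change was 0.91 in control and 0.06 in periodontitis, and their median arm difference was -0.84, against 0.01 over all genes tested. No member passed the edgeR test of the arm difference; 11 of 16 had an unadjusted p under 0.05 below 0 and none above, against 7.63% and 4.29% of all genes, and DESeq2 called 5. Ctsk, cathepsin K, the main collagen-degrading protease of osteoclasts, had 1559.9, 1490.4 and 1229 CPM at 0 d and 4256, 3299.6 and 2713 CPM at 3 d in control. Under periodontitis the values were 2142, 2635 and 1804 CPM at 0 d and 2741, 1968 and 2951 CPM at 3 d. Control libraries were apart between the days and periodontitis libraries overlapped (arm difference -1.04 ± 0.29, edgeR adjusted p = 0.235). Tcirg1, a subunit of the proton pump that acidifies the resorption pit, had 307, 318 and 341 CPM at 0 d and 665, 570.1 and 444 CPM at 3 d in control. The matching periodontitis values were 411, 490.4 and 378 CPM at 0 d and 453, 352 and 419 CPM at 3 d. The pattern across groups was that of Ctsk (arm difference -0.86 ± 0.21, edgeR adjusted p = 0.178).

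Acp5, tartrate-resistant acid phosphatase, had an arm difference of -0.79 (edgeR adjusted p = 0.322). Ocstamp, which acts in osteoclast fusion, had -1.24 (edgeR adjusted p = 0.233), and Tnfrsf11a, the receptor RANK, had -1.02 (edgeR adjusted p = 0.228); both were named after their values were seen, as were Tnfsf11 and Car2. Tnfsf11, the ligand RANKL, which osteoblast-lineage and T cells supply, had 106, 108 and 91.7 CPM at 0 d and 31.5, 25.6 and 29.5 CPM at 3 d in control, and 112, 178 and 124 and then 36.8, 34.7 and 40.0 CPM in periodontitis. It fell in both arms, with an arm difference of -0.08 ± 0.31 (edgeR adjusted p = 0.950) and its sign turned without periodontitis 0 d replicate 2. Car2, carbonic anhydrase 2, was the 1 member with an estimate above 0, at 1.13 (edgeR adjusted p = 0.426), and is also abundant in red blood cells. The mean log2 CPM of the list was 7.60, 7.24 and 6.88 in control at 3 d, 7.01, 6.53 and 6.99 in periodontitis at 3 d, 6.75, 7.25 and 6.73 in periodontitis at 0 d and 6.67 to 6.70 in control at 0 d. Control at 3 d overlapped both periodontitis groups and lay above control at 0 d. Without control 3 d replicate 1, its highest library, 9 members had an unadjusted p under 0.05 below 0, with a median of -0.68.

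**Figure D4:**
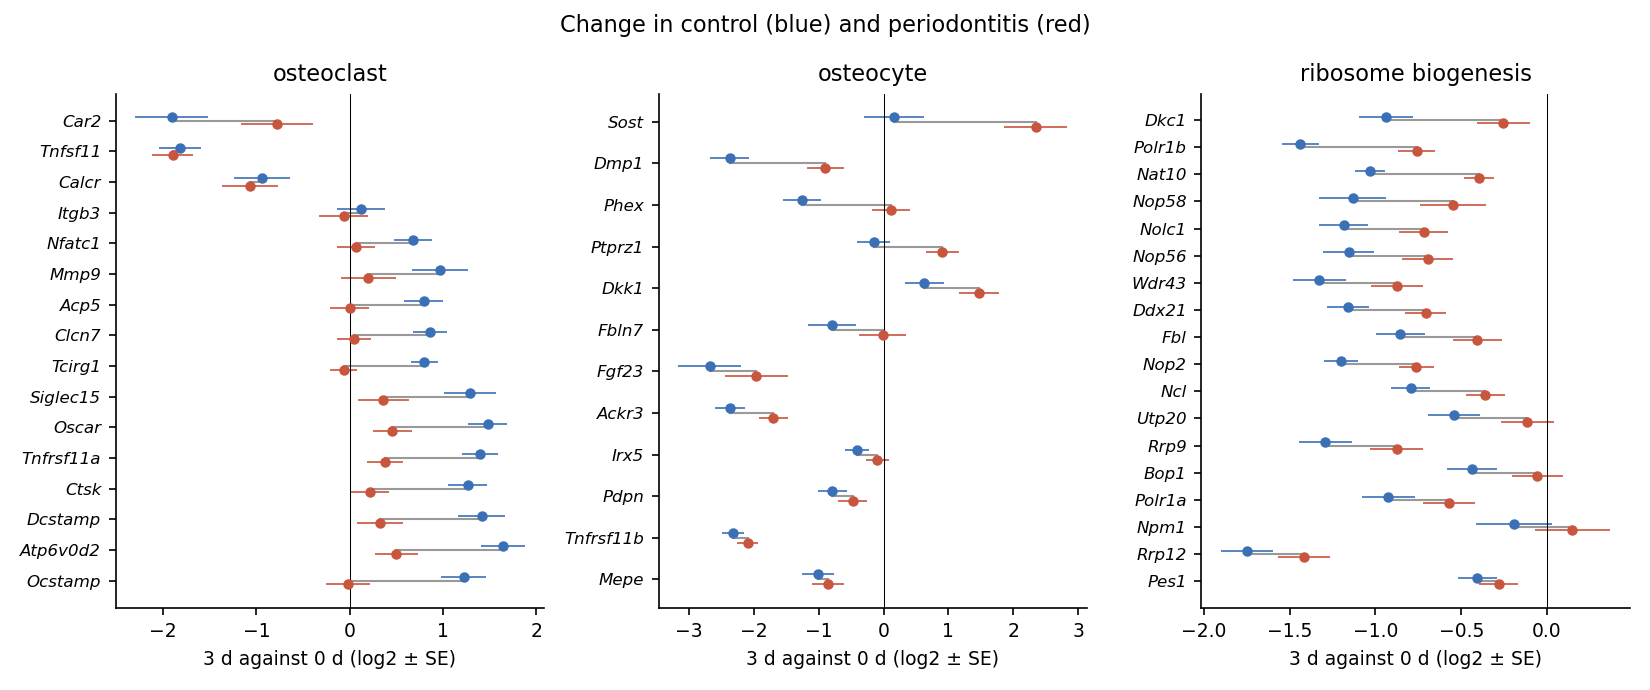
Log2 change from 0 d to 3 d with its SE for each tested member of the osteoclast, osteocyte and ribosome biogenesis lists, control in blue and periodontitis in red. Most osteoclast genes lie above 0 in control and near 0 in periodontitis, and all 12 osteocyte and 18 ribosome biogenesis genes have a lower estimate in control than in periodontitis.

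Macrophage genes also had estimates mostly below 0. Of 16 monocyte and macrophage genes tested, 10 rose and 4 fell in control, and 3 rose and 3 fell in periodontitis. Their median change was 0.76 in control and 0.03 in periodontitis. Below 0, 9 had an unadjusted p under 0.05, and above 0 there was 1, against 7.63% and 4.29% of all genes. None passed the edgeR test and DESeq2 called 1. The mean log2 CPM of the list was 6.004 to 6.34 in control at 3 d and at most 5.78 in the other 3 groups. Trem2, a lipid-sensing receptor of macrophages, had 10.1, 10.5 and 9.21 CPM at 0 d and 33.2, 33.4 and 43.0 CPM at 3 d in control. For periodontitis the levels were 12.6, 7.79 and 9.44 CPM at 0 d and 16.8, 18.9 and 21.5 CPM at 3 d. Trem2 rose in both arms, the arms overlapped at 0 d, and every control 3 d library exceeded every periodontitis 3 d library (arm difference -0.94 ± 0.24, edgeR adjusted p = 0.194). Gpnmb, a glycoprotein of macrophages and osteoclasts, had an arm difference of -1.59 (edgeR adjusted p = 0.300) and the lysosomal marker Cd68 -1.03 (edgeR adjusted p = 0.269). Ccr2, the chemokine receptor of inflammatory monocytes, went the other way, at 1.09 (edgeR adjusted p = 0.350), with 64.7, 95.1 and 142 CPM in control at 0 d and 22.7 to 48.1 CPM in the other 9 libraries. Gpnmb, Cd68 and Ccr2 were named after their values were seen.

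Osteocyte genes lay on the other side of 0. All 12 tested had an arm difference above 0, with a median of 0.75. Of the 12, 5 had an unadjusted p under 0.05, against 4.29% of all genes above 0. None passed the edgeR test, and DESeq2 called 1. In control none rose and 7 fell, and in periodontitis 3 rose and 5 fell. Dmp1, a matrix protein that controls mineralization, had 5483, 4207 and 3841 CPM at 0 d and 914, 738 and 953 CPM at 3 d in control. Periodontitis mice had 1897, 2518 and 2125 CPM at 0 d and 1348, 909.9 and 1248 CPM at 3 d. Dmp1 fell in both arms and periodontitis was the lower arm at 0 d without overlap (arm difference 1.48 ± 0.40, edgeR adjusted p = 0.233). Sost, which encodes the Wnt inhibitor sclerostin, had 80.6, 81.9 and 31.5 CPM at 0 d and 62.7, 69.7 and 83.9 CPM at 3 d in control. The periodontitis arm had 17.0, 23.5 and 12.2 CPM at 0 d and 113, 78.9 and 76.1 CPM at 3 d. It rose in periodontitis by 2.35 ± 0.49, its control days overlapped, and the arm difference was 2.19 ± 0.67 (edgeR adjusted p = 0.265). Phex, a protease of phosphate control that is also on the osteoblast list, had an arm difference of 1.37 (edgeR adjusted p = 0.265). Sost and Phex were named after their values were seen.

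Of 16 osteoblast genes, 5 rose and 6 fell in control, and 6 rose and 1 fell in periodontitis. Their median arm difference was 0.42. An unadjusted p under 0.05 was found above 0 for 8 and below 0 for none, against 4.29% and 7.63% of all genes. None passed the edgeR test, and DESeq2 called 1. The 8 became 3 without control 0 d replicate 1 or control 3 d replicate 2, and 4 without control 0 d replicate 2, control 3 d replicate 1, periodontitis 0 d replicates 1 or 3, or periodontitis 3 d replicates 1 or 3, each left out alone. With the ganglion markers as a covariate the count was 3 (median 0.32). It was 3 with muscle and ganglion markers and 8 with muscle markers alone. Bglap, osteocalcin, a late osteoblast product, had 2045, 1977 and 1061 CPM at 0 d and 478, 495 and 708 CPM at 3 d in control. The periodontitis arm held 462, 980.5 and 705 CPM at 0 d and 807, 708 and 631 CPM at 3 d. Bglap fell in control and the periodontitis days overlapped (arm difference 1.60 ± 0.48, edgeR adjusted p = 0.265), and its reads may be shared with the near-identical Bglap2. Sp7, the transcription factor osterix, rose in both arms, by 0.56 in control and 0.97 in periodontitis (arm difference 0.41, edgeR adjusted p = 0.391), and Runx2, the master regulator of the lineage, had an arm difference of 0.51 (edgeR adjusted p = 0.416). Col1a1, the main collagen of bone, had 32101 to 56204 CPM in control and 51892 to 81321 CPM in periodontitis and an arm difference of 0.0038 ± 0.51 (edgeR adjusted p = 1), whose sign turned with other scalings and filters.

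Genes of ribosome production, which copy and process ribosomal RNA in the nucleolus, all had an arm difference above 0. Of 18 tested, 17 fell in control and 11 in periodontitis, with median changes of -1.08 and -0.56. The median arm difference was 0.44. Of the 18, 10 had an unadjusted p under 0.05, against 4.29% of all genes above 0. None passed the edgeR test, and DESeq2 called 2. Nat10, an RNA acetyltransferase, had 81.8, 68.0 and 74.3 CPM at 0 d and 37.7, 37.0 and 34.9 CPM at 3 d in control. Levels under periodontitis were 49.6, 51.5 and 51.5 CPM at 0 d and 40.5, 37.2 and 38.2 CPM at 3 d. Every periodontitis library was below every control library at 0 d, and the arms overlapped at 3 d (arm difference 0.64 ± 0.12, edgeR adjusted p = 0.118). Polr1b, a subunit of RNA polymerase I, had an arm difference of 0.68 (edgeR adjusted p = 0.173), Dkc1, the pseudouridine synthase dyskerin, 0.69 (edgeR adjusted p = 0.287) and Nop2, a ribosomal RNA methyltransferase, 0.44 (edgeR adjusted p = 0.292), all 3 named after their values were seen. The count of 10 became 4 with the ganglion markers as a covariate (median 0.39), and 4 without control 0 d replicate 1, control 3 d replicate 2, periodontitis 0 d replicate 1 or periodontitis 3 d replicate 3, each left out alone. It was 5 without control 3 d replicate 1 and 6 without periodontitis 0 d replicate 3, and the estimates' median stayed between 0.33 and 0.53 over the 12 omissions.

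Inflammatory cytokines fell in both arms, 11 of 17 in control and 14 of 17 in periodontitis, with a median arm difference of 0.01. Il1b, interleukin-1 beta, had 300.2, 231 and 223 CPM at 0 d and 65.2, 32.7 and 68.2 CPM at 3 d in control. The periodontitis libraries held 918, 1641 and 972 CPM at 0 d and 221, 329 and 255 CPM at 3 d. The periodontitis libraries were above the control libraries on both days, it fell by 2.18 in control and by 2.13 in periodontitis, and the arm difference was 0.05 ± 0.76 (edgeR adjusted p = 0.988), with a sign that turned when neuron markers were a covariate. The arm difference was 1.07 ± 0.90 for Il6 (edgeR adjusted p = 0.691) and -0.89 ± 0.59 for Tnf (edgeR adjusted p = 0.592), and neither passed. Il23a, a subunit of interleukin-23, had 0.199, 0.324 and 0.183 CPM at 0 d and 0.334, 0.302 and 0.186 CPM at 3 d in control. Periodontitis libraries gave 2.94, 2.92 and 2.77 CPM at 0 d and 0.524, 0.341 and 0.683 CPM at 3 d. Il23a was high only in periodontitis at 0 d and fell there by 2.47 (arm difference -2.69 ± 0.61, edgeR adjusted p = 0.178).

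Chemokines fell in 10 of 19 cases in control and 15 of 19 in periodontitis, with a median arm difference of -0.79. Of the 19, 4 had an unadjusted p under 0.05 below 0, against 7.63% of all genes. They were led by Cxcl9, which draws in lymphocytes, at -2.71 (edgeR adjusted p = 0.311). With 1 library left out the 4 became 3 to 7, with 7 without periodontitis 0 d replicate 3. T cell genes had a median arm difference of 1.11. Of 15 tested, 4 had an unadjusted p under 0.05, all above 0, against 4.29% of all genes. These 4 became 8 without control 3 d replicate 3 and 2 without control 3 d replicate 2 or periodontitis 3 d replicate 2. Ctla4, an inhibitory receptor of T cells, had 2.12, 0.713 and 1.16 CPM at 0 d and 0.446, 0.605 and 0.744 CPM at 3 d in control, and 2.04, 2.37 and 1.42 and then 2.56, 5.51 and 4.97 CPM in periodontitis. Its periodontitis 3 d libraries were the highest of the 12 (arm difference 2.31 ± 0.64, edgeR adjusted p = 0.242). Neutrophil granule genes fell in 7 of 15 cases in control and 12 of 15 in periodontitis, with none at an unadjusted p under 0.05 for the arm difference and a median of -0.87.

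Immediate early genes, switched on within minutes of a stimulus, fell in 18 of 20 cases in control and 15 of 20 in periodontitis. An unadjusted p under 0.05 was found above 0 for 4, against 4.29% of all genes, and below 0 for none. Without control 0 d replicate 1 the 4 became 2. Dusp5, a phosphatase of ERK, had an arm difference of 1.24 (edgeR adjusted p = 0.266), and Fosb, an AP-1 subunit named after its values were seen, had 2.43 (edgeR adjusted p = 0.299) with 178, 75.8 and 24.7 CPM in control at 0 d. Vegfa, the vessel growth factor, had 613, 472 and 451 CPM at 0 d and 131, 133 and 129 CPM at 3 d in control. The levels in periodontitis were 359, 392 and 364 CPM at 0 d and 191, 171 and 176 CPM at 3 d. Vegfa was lower in periodontitis at 0 d and higher at 3 d, with no overlap on either day (arm difference 0.91 ± 0.20, edgeR adjusted p = 0.161). Ctgf, a matricellular target of the YAP pathway, had 0.99 (edgeR adjusted p = 0.245) and the chaperone Dnajb4 0.81 (edgeR adjusted p = 0.178). Sfrp2, a secreted modulator of Wnt signals, had 40.5, 25.99 and 15.01 CPM at 0 d and 142, 107 and 120.4 CPM at 3 d in control, and 94.9, 50.7 and 72.9 and then 52.9, 61.9 and 64.6 CPM in periodontitis. It rose in control, its periodontitis days overlapped, and the arm difference was -2.47 ± 0.53 (edgeR adjusted p = 0.157).

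**Figure D5:**
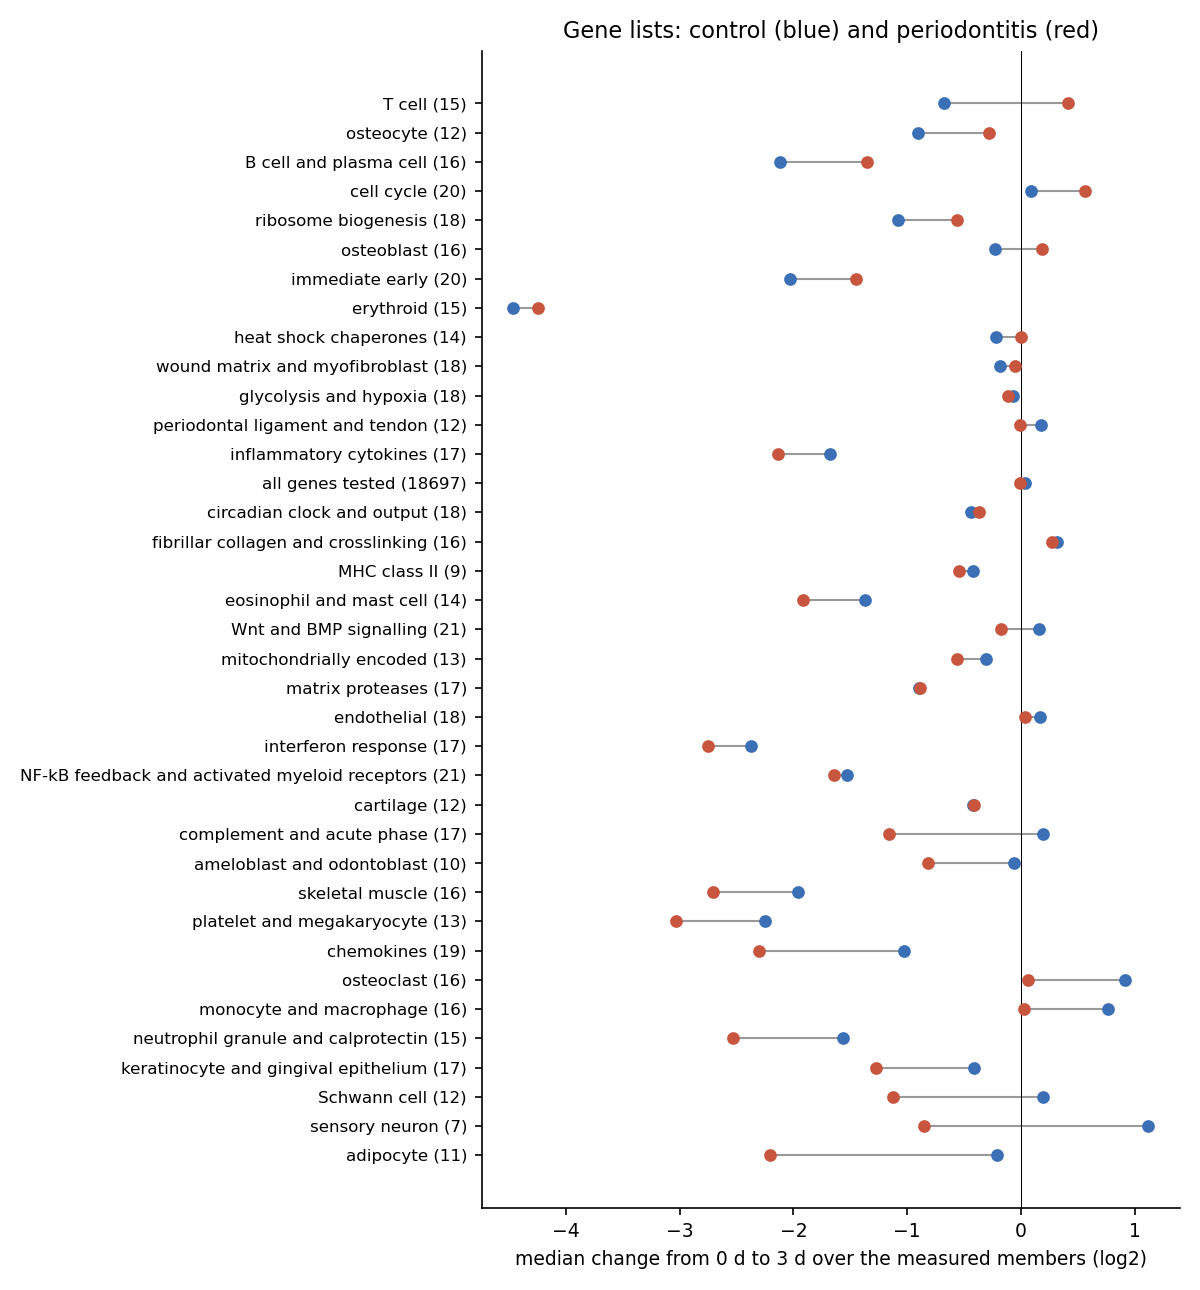
Median log2 change from 0 d to 3 d over the tested members of each gene list (number in brackets), control in blue and periodontitis in red, sorted by the median arm difference. Osteoclast and macrophage genes have medians of 0.91 and 0.76 in control and 0.06 and 0.03 in periodontitis, while erythroid genes fell in both arms, with medians of -4.46 and -4.24. The ganglion and salivary lists are not drawn.

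Of 17 autonomic ganglion neuron genes, 13 had an unadjusted p under 0.05 below 0, against 7.63% of all genes. Their median arm difference was -7.55, and DESeq2 called 5. Vip, a neuropeptide, had 0.0662, 0 and 0.0610 CPM in control at 0 d and 0.891, 335 and 2.05 CPM in control at 3 d. Under periodontitis the values were 753, 20.6 and 392 CPM at 0 d and 213, 331 and 0.0621 CPM at 3 d. The level varied within groups by the library, and without control 3 d replicate 2 no ganglion gene had an unadjusted p under 0.05 and the median was -1.94. All 12 Schwann cell genes had an arm difference below 0, with a median of -1.19. Of these, 4 had an unadjusted p under 0.05, against 7.63% of all genes below 0. That count was 7 without control 3 d replicate 3 or periodontitis 0 d replicate 2, 2 without control 0 d replicate 2, and 1 without control 0 d replicate 3, control 3 d replicate 2, periodontitis 0 d replicate 1 or periodontitis 3 d replicate 3. Their part and that of the ganglion markers in the other results was not tested beyond the values given above.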

How the data were processed

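TRIzol was used for RNA isolation and the NEBNext Ultra kit for the sequencing libraries, per the labels' protocols. The deposited table holds the authors' raw counts of reads per gene. HISAT2, SAMtools and StringTie and the build mm9 are listed, without versions, per the submitters' processing notes; the sources used here do not give the counting program, strand setting or annotation. The table's coordinates matched GRCm38 (GENCODE M21) for 98.3% of the 99.9% of its 54532 gene identifiers found there, and are given as GRCm38.

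Titles gave the arm and day of each sample, and replicate pairs all differed by more than sampling noise (the lowest chi-square, divided by genes, was 8.52). Genes kept by filterByExpr (18697) were scaled by TMM and tested with glmQLFTest in edgeR 4.0.16 (R 4.3.3) in a group-means model over all 18 libraries. P-values were adjusted by Benjamini-Hochberg over all genes tested and called under 0.05. CPM used TMM-scaled totals, and log2 CPM a prior count of 2. The same fit was also run on simulated counts, after the main fit and with means and spread taken from it. Alternatives were DESeq2 1.42.0, other scalings and filters, the 12 libraries alone, marker lists as covariates, a replicate block, and each library left out in turn. Near-identical gene copies and overlapping genes cannot be separated without the counting settings.

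The members, gene lists, tests and alternatives were chosen with earlier results of these data known. The rule named the called protein-coding genes at 1 CPM or more, filled to 10 per direction by smallest p, the leading member of each list, and always Ctsk, Acp5, Runx2, Sp7, Col1a1, Bglap, Tnf, Il6 and Il1b; not all of these are printed, and other genes are marked where named. Replicate numbers were taken only as names, since no pairing is stated. Correlations of the deviations of same-numbered samples ran from -0.591 to 0.659, with 7 of 18 above 0.1. For pairs that include a control 0 d sample they ran from 0.0574 to 0.177 at the same number and from -0.148 to 0.0669 at unlike numbers. These values do not settle whether the numbers pair samples.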

Additional observations from a re-analysis of the deposited data

Results flagged for a closer look

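The test of the interaction picked out 3 genes whose change from 0 d to 3 d differed between the arms, from the edgeR quasi-likelihood test. The log2 arm difference was -2.46 for Aplnr (adjusted p = 0.00568), 1.33 for Bpgm (adjusted p = 0.00737) and 1.49 for Tfpi2 (adjusted p = 0.0215), each with 3 libraries per group. In all 3 genes every periodontitis library was apart from every control library at 0 d. The 0 d libraries are part of the contrast that picked these genes, so this is no separate evidence. The share of all genes so separated was not computed.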

How the results depend on the processing

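The count of 3 genes in the arm difference became 27 with no low-count filter, 223 with DESeq2, 5 with the ganglion list as a covariate and 0 without the 5 ganglion-rich libraries; the cause of the first 3 was not tested. The last setting keeps 1 periodontitis library per day, assumed to vary like the other groups, so its p-values say nothing about stability (edgeR left 635 genes at an unadjusted p under 0.05, and DESeq2 was not run). Leaving out 1 library at a time gave 1 to 143 calls, with 143 without periodontitis 0 d replicate 2, 17 without control 3 d replicate 3 and 8 without control 0 d replicate 3. The count was 1 without control 0 d replicate 1, control 3 d replicate 2, periodontitis 0 d replicate 3, periodontitis 3 d replicate 1 or periodontitis 3 d replicate 3. The replicate block gave 4 calls. No pairing of samples by number is stated, so whether the block is apt is not known. The control count of 6488 ran from 5269 to 6610 with 1 library left out. The periodontitis count of 3967 became 1808 with the muscle list, 1473 with both lists as covariates and 612 without the ganglion-rich libraries (1 library against 1), and ran from 2520 (without periodontitis 3 d replicate 1) to 4304 with 1 library left out.

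Aplnr passed in 11 of 12 other settings and 12 of 12 omissions, from -2.61 to -2.13. Bpgm passed in 9 of 12 settings and 5 of 12 omissions (1.22 to 1.43; adjusted p 0.0068 to 0.107 in the omissions) and Tfpi2 in 9 of 12 and 5 of 12 (1.29 to 1.61; adjusted p 0.0121 to 0.119). Neither passed with the 12 libraries alone, with both covariates, without the ganglion-rich libraries, or without control 0 d replicate 1, control 3 d replicates 1 or 2, periodontitis 0 d replicate 3 or periodontitis 3 d replicates 1 or 3; Bpgm also failed without control 0 d replicate 2 and Tfpi2 without periodontitis 0 d replicate 1. Slpi passed with DESeq2 (adjusted p = 3.4e-06), with no filter (0.00129), in the 12 libraries alone (0.0119), with library totals (0.0342), with the replicate block (0.0419), and without control 3 d replicate 3 (0.0351) or periodontitis 0 d replicate 2 (0.0323), over a range up to 1. Of 60 genes printed, 57 kept their sign in every setting. Many of them were picked for a small p or for their values in these same libraries, so this count does not measure stability. Il1b turned to -0.18 with the ganglion covariate, -0.057 with both covariates and -0.78 without the ganglion-rich libraries, and ran from -0.25 to 0.33 over the omissions. Col1a1 turned to -0.019 with RLE scaling and with DESeq2, -0.048 with library totals, -0.0099 with no filter, -0.032 with the stricter filter, with the 12 libraries and with lists removed, -0.038 with the block, -0.060 with the ganglion covariate and -0.35 without the ganglion-rich libraries, and ran from -0.17 to 0.20 over the omissions. Tnfsf11 ran from -0.23 to 0.11 over the omissions. At 3 libraries per group and a median SE of 0.30, small arm differences were not detectable.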

Other observations

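The 7 d libraries, which entered the fit but not the contrast, gave a later level for the 3 called genes. Aplnr had 183, 131 and 111 CPM in control and 187, 133 and 178 CPM in periodontitis at 7 d, with overlap between the arms. Bpgm had 36.8, 30.4 and 27.99 CPM in control and 26.8, 24.2 and 26.5 CPM in periodontitis, with every periodontitis library below every control library. Tfpi2 had 13.5, 14.9 and 14.4 CPM in control and 15.3, 16.6 and 14.7 CPM in periodontitis, with overlap.

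B cell and plasma cell genes fell in 12 of 16 cases in control and 6 of 16 in periodontitis, where 1 rose, and 15 of 16 had an arm difference above 0, with a median of 0.57. None passed in edgeR or in DESeq2, and the unadjusted edgeR p was under 0.05 for 1, against 11.9% of all genes. Interferon response genes fell in 16 of 17 cases in control and 17 of 17 in periodontitis, with a median arm difference of -0.24. Fibrillar collagen genes had a median change of 0.31 in control and 0.27 in periodontitis, and none of 16 had an unadjusted p under 0.05 for the arm difference.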
